A study of Mus musculus with 4 samples.

Results

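The pregnancy-specific glycoproteins (Psg) and the related adhesion molecule Ceacam2 were examined in the brain of newborn mice after prenatal exposure to titanium dioxide nanoparticles (TiO2-NP). The members were chosen because the signal of Psg26 was higher on both arrays of exposed offspring, so the values of Psg26 in that comparison describe how the set was chosen and carry no test. The set held 10 genes, Psg16, Psg17, Psg18, Psg19, Psg21, Psg23, Psg25, Psg26, Psg28 and Ceacam2, of 20656 genes named on the array. They were read by 12 probes, since Psg28 and Ceacam2 each had 2 probes and the other members had 1.

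Gene expression was measured in whole brain of the offspring of C57BL/6J dams at postnatal day 1. Dams of the TiO2-H group (n = 6) received 100 μg TiO2-NP per mouse into the trachea in 25 μL, and dams of the Sham group (n = 5) received the same volume of vehicle. The protocol places the exposure at gestational day 10.5, whereas the sample labels write gestational day 14. RNA was pooled for each sex of each exposure group and hybridized to 1 array. The pools are described as 2 offspring per dam, and whether this means 2 of each sex is not stated. A group thus has no replicate, litters cannot be separated, and every difference below is a description without a test.

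The pregnancy-specific glycoproteins are secreted proteins of the immunoglobulin superfamily and belong to the carcinoembryonic antigen family. In rodents they are known as products of the trophoblast of the placenta that enter the maternal blood, where they are described as modulators of immune cells and of blood vessel growth, with the tetraspanin Cd9, latent Tgfb1, integrins and heparan sulfate proteoglycans among their reported partners. Ceacam2 is a membrane protein of the same family and a close relative of Ceacam1. Psg16 has also been listed as brain carcinoembryonic antigen (bCEA).

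In the RefSeq gene order of chromosome 7, Psg18, Psg28, Psg26 and Psg25 are adjacent, followed after Psg27 by Psg23 and Psg21, and Psg19 and Psg17 lie at the far end of the same cluster. Psg16 lies apart, next to Ceacam3, and Ceacam2 lies next to Ceacam1. The 250 bases before the start of Psg26 and of 3 genes of its cluster are shown because they display how alike these genes are. They are RefSeq sequences of build GRCm38.p6, 5′ to 3′ on the minus strand (Psg26 chr7:18484150-18484399, Psg28 chr7:18432056-18432305, Psg25 chr7:18532228-18532477, Psg23 chr7:18616502-18616751). Capitals mark bases that differ from the aligned base of Psg26, and bases without a counterpart in the alignment are in lower case.
Psg26: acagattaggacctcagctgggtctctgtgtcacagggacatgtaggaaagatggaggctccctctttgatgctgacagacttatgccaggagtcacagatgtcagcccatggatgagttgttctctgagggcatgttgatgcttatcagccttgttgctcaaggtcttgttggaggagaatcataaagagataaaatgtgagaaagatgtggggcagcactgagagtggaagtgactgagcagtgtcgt
Psg28: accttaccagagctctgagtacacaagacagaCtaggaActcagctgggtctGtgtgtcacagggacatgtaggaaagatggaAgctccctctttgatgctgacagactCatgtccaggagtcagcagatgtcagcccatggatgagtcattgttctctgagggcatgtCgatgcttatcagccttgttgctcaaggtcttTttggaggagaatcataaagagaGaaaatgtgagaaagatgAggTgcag
Psg25: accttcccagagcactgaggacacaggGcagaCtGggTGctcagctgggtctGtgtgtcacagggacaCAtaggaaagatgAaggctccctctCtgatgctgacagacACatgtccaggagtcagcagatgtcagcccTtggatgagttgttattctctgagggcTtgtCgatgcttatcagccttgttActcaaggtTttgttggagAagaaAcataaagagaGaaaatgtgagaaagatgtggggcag
Psg23: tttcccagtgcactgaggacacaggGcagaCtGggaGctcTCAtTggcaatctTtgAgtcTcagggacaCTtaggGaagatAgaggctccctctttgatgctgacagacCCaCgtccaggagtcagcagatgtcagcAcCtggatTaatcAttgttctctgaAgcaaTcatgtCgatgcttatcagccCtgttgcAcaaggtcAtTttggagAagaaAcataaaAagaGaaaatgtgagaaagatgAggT
Psg28 was identical to Psg26 at 208 of 218 aligned bases (95.4%), Psg25 at 198 of 218 (90.8%) and Psg23 at 179 of 214 (83.6%). The letters TATAAA, sought on both strands, were in none of the windows of the 8 members that have one, against 12.4% of all 32851 RefSeq windows of that length. Genes this similar can share signal on an array. The sequences of the probes were not used here, so a probe named for one Psg gene may also have bound RNA of another.

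On these arrays 1 labeled RNA pool is hybridized per array, and the processed signal is the brightness of a spot after subtraction of the local background. On many spots near background, however, it equals the error that the software gives it. Psg26 is such a case in Sham male (7.19, error 7.2) and Sham female (7.57, error 7.6). Such values stand for not detected and are no measured brightness, and lower quartiles near them share this limit. Signals were divided by the 75th percentile of their array (795 to 871) before arrays were compared. A spot counts as detected where the scanner software marked it well above background, and the lowest such signal was 30.4 for Sham male, 31.7 for Sham female, 29.5 for labelled TiO2-H male and 23.3 for labelled TiO2-H female. The sex labels of the TiO2-H arrays went against the data: Xist, transcribed from the inactive X chromosome, had signals of 17.9, 276, 347 and 5.36 in that order, and the Y-linked Eif2s3y had 3519, 419, 6.40 and 4345. The Sham female array went partly against its label, since Eif2s3y (419) and Ddx3y (142), both Y-linked, were well above background there beside Xist. Sham male and Sham female are therefore used as names of labels, and the TiO2-H arrays are called "labelled TiO2-H male" and "labelled TiO2-H female". The Sham arrays lay in one row of the slide and the TiO2-H arrays in the other, so slide row and exposure cannot be told apart. All 11 brain marker genes were detected on every array.

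**Figure D1:**
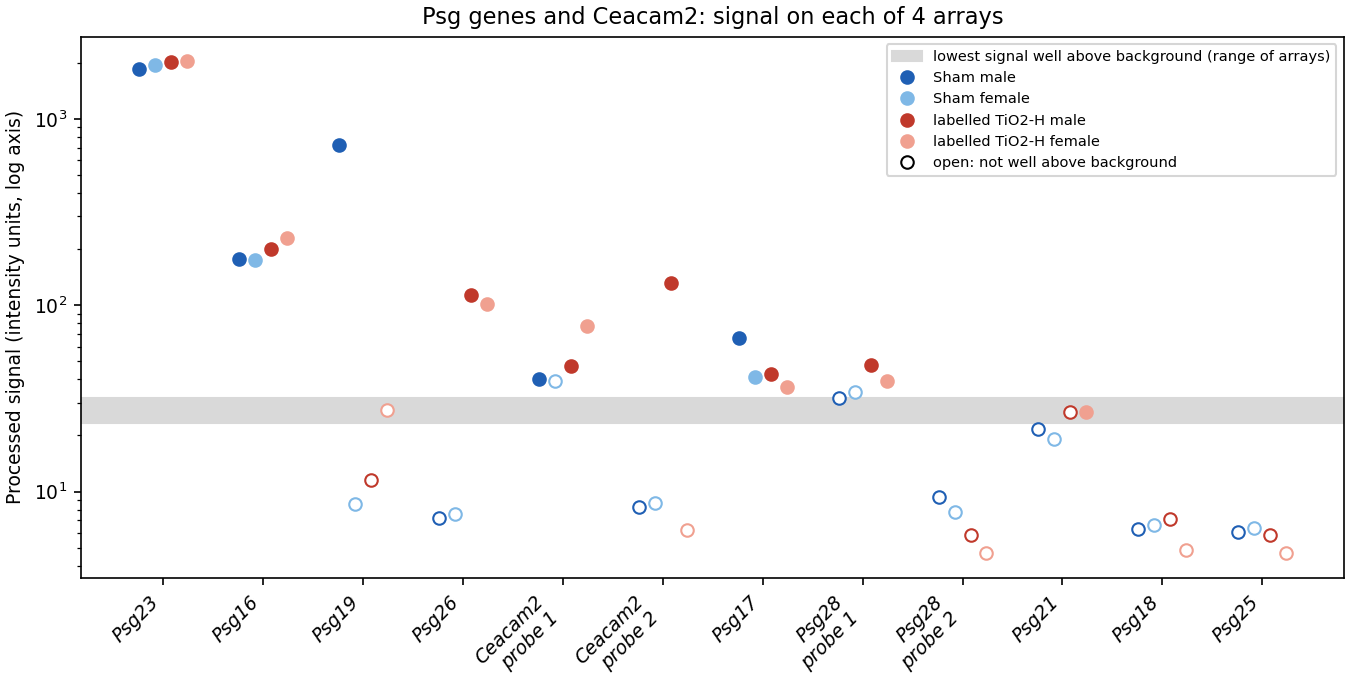
Processed signal (log axis, intensity units) of each member probe on the 4 arrays. Filled points were well above background, open points were not, and the gray band spans the lowest signal well above background on the 4 arrays (23.3 to 31.7). Psg26 lies below the band on both Sham arrays and at 114 and 101 on the TiO2-H arrays, whereas Psg23 and Psg16 lie above it on all 4.

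Psg23, Psg16 and Psg17 were detected on all 4 arrays, as were 70.8% of all named genes. Psg23, a placental Psg gene described as promoting blood vessel growth, gave processed signals of 1859 for Sham male, 1946 for Sham female, 2026 for labelled TiO2-H male and 2033 for labelled TiO2-H female. After scaling, these signals were 229%, 245%, 234% and 233% of the 75th percentile of their arrays. The log2 difference TiO2-H over Sham of Psg23 was 0.03 on the arrays labelled male and -0.07 on those labelled female, each with a scanner error of 0.20. Both were smaller than the difference of 0.09 between the Sham arrays, and the signals of the exposure groups overlapped after scaling.

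Psg16 gave signals of 176 for Sham male, 175 for Sham female, 199 for labelled TiO2-H male and 229 for labelled TiO2-H female. Both TiO2-H arrays were higher, by a log2 difference of 0.08 in the labelled males (scanner error 0.22) and 0.26 in the labelled females (scanner error 0.21). The difference of 0.20 between the TiO2-H arrays was as large as their mean excess over Sham, 0.17.

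Psg17, the member known to bind Cd9 on macrophages, had signals of 66.6 (Sham male), 41.3 (Sham female), 42.5 (labelled TiO2-H male) and 36.5 (labelled TiO2-H female). It was 0.60-fold on the arrays labelled male, with a log2 difference of -0.74 and a scanner error of 0.37. In the labelled females the log2 difference was -0.31 with an error of 0.43. The Sham male array alone was high, since Sham female against Sham male also differed by -0.66. After correction of the background by normexp, a model of signal plus background noise, the labelled male difference of Psg17 was -0.12. As run here, normexp adds an offset of 50 to every signal, which by construction shrinks the log2 differences of dim spots.

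Psg26 and Psg28 were detected on both TiO2-H arrays and on neither Sham array. This pattern was shown by 220 of 20656 genes (1.07%), and the opposite pattern, by which no member was found, by 11 genes (0.0533%). The TiO2-H arrays had more spots well above background, 59.4% and 61.2% (labelled male and female) against 56.9% and 56.2% (Sham male and female). Their lowest detected signals, 29.5 and 23.3, were also below those of Sham, 30.4 and 31.7. Whether this accounts for the unequal counts was not tested. Psg26 read 7.19 for Sham male and 7.57 for Sham female, both not well above background, against 114 (scanner error 13) for labelled TiO2-H male and 101 (scanner error 12) for labelled TiO2-H female. The exposure groups did not overlap, and the TiO2-H arrays differed from each other by -0.18 on the log2 scale (labelled female over labelled male, scanner error 0.24). Because Sham signals were dim, the fold change is a bound set by the lowest signal well above background, and Psg26 was at least 3.51-fold higher in the labelled males and at least 2.92-fold higher in the labelled females. The bound of the mean of both sexes was 1.68 on the log2 scale, and over all 220 genes detected on the same arrays the median was 0.25, with 25 of them at or above 1.5-fold. After normexp the log2 difference of Psg26 was 1.11 in the labelled males and 0.91 in the labelled females.

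Spots beside the Psg26 spot were also brighter on the TiO2-H arrays. Among its 24 nearest spots, within 97.1 μm, the lower quartile of signals was 7.21 (Sham male) and 7.59 (Sham female), but 85.8 (labelled TiO2-H male) and 67.5 (labelled TiO2-H female). Over all spots of an array this quartile was between 6.40 and 8.31. Of the 24 spots, 8 were dim (not well above background) in both Sham pools, and 3 and 5 of these 8 were well above it on the labelled TiO2-H male and female arrays. Over all 27622 spots that were dim on both Sham arrays, 7.54% and 10.4% were. The local lower quartile also depends on how many of the nearest spots are dim. Around Psg21, where 4 of 24 spots were dim on Sham, it was 78.3 to 85.0 over the 4 arrays.

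The raised spots around Psg26 were interspersed with dark ones. A negative control spot at 63.5 μm from Psg26 read 6.90 and 5.54 on the labelled TiO2-H male and female arrays, whereas a control spot for the synthetic spike-in ERCC-00025 at 64.3 μm read 6.92 and 73.7. The Psg26 spot lay 206 μm inside the outermost spots of the array. With the excess of the local lower quartile of the 24 nearest spots subtracted from every spot, a setting added after seeing the data, the log2 difference of Psg26 was 0.16 in the labelled males and 0.20 in the labelled females, below the 1.5-fold threshold. With 48 spots the values were 0.67 and 1.01, above it. The subtracted amount likewise depends on how many of the nearest spots are dim.

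**Figure D2:**
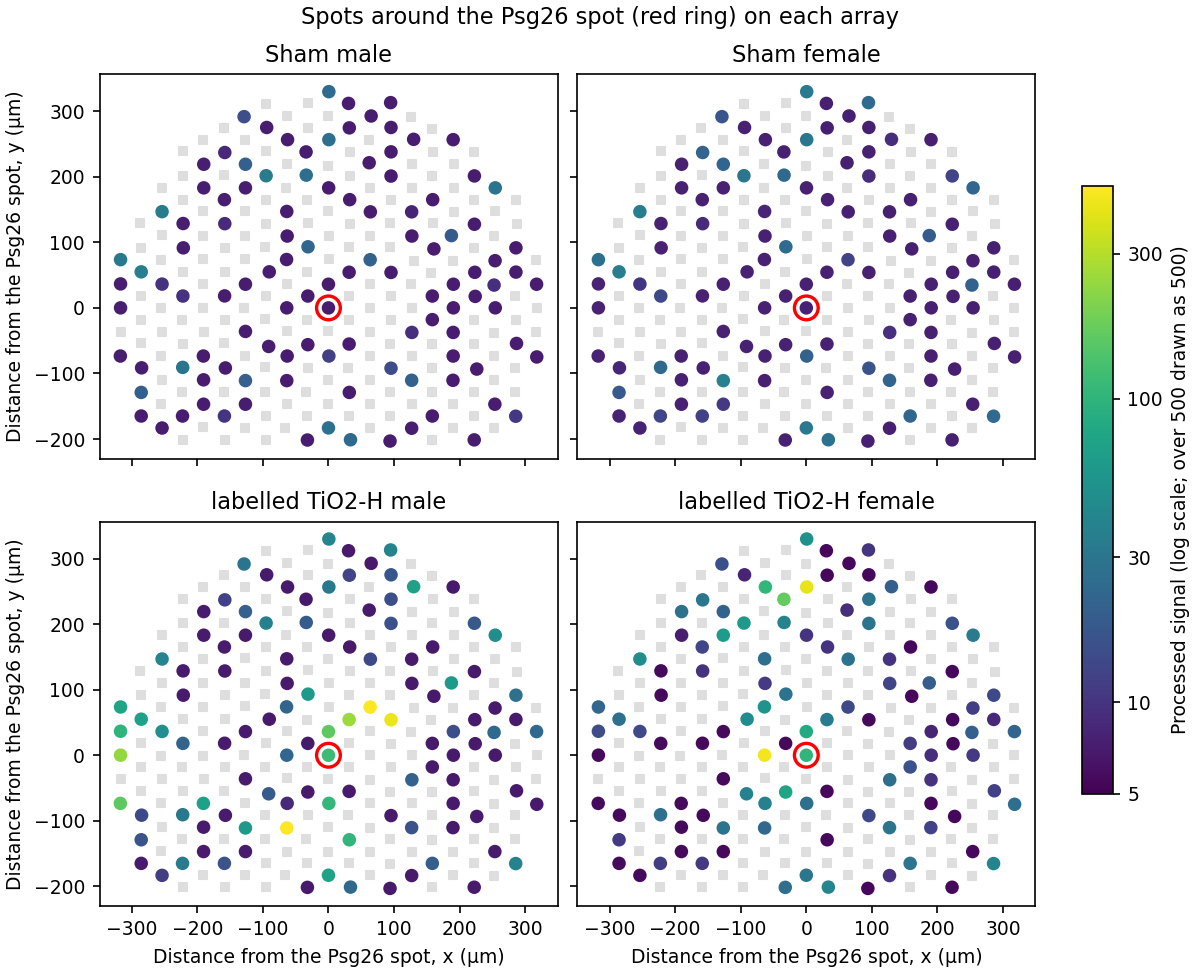
Spots within 330 μm of the Psg26 spot (red ring) on each array, at their distance from it in μm. Circles are the 111 spots that were dim in both Sham pools, colored by processed signal (log scale), and gray squares are the other spots. On both TiO2-H arrays several circles around Psg26 are brighter than on the Sham arrays, and the blank area at the bottom lies beyond the edge of the array.

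Psg28, the neighbor of Psg26 on the chromosome, had signals on its brighter probe of 31.8 (Sham male) and 34.3 (Sham female), not well above background, and of 47.7 (labelled TiO2-H male) and 39.3 (labelled TiO2-H female), well above it. It was 1.40-fold higher in the labelled males and 1.05-fold higher in the labelled females, under 1.5-fold in both. These ratios use its own Sham signals, which exceeded the lowest detected signal, and so are no strict limits. The second probe of Psg28 gave 9.33, 7.74, 5.82 and 4.66 on the arrays in the same order and was not well above background on any, so that the probes of this gene disagreed. The surroundings of the Psg28 spots were not raised: 0 and 1 of the 7 nearby spots that were dim on Sham were detected on the labelled TiO2-H male and female arrays for the brighter probe.

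Psg19 was bright on a single array. Its signal was 721 (scanner error 74) for Sham male, and 8.55 for Sham female, 11.5 for labelled TiO2-H male and 27.5 for labelled TiO2-H female, all 3 not well above background. The labelled TiO2-H male array was at least 26.2-fold lower and the Sham female array at least 22.3-fold lower than the Sham male array, so the difference within Sham was of the size of the difference between exposures. After normexp the labelled male log2 difference of Psg19 was -2.72, against -4.71 before it. On the Sham male array 79 genes (0.382%) exceeded every other array at least 4-fold, against 56, 24 and 18 on the Sham female, labelled TiO2-H male and labelled TiO2-H female arrays. The mean log2 difference of Psg19 between exposures was -2.52 with dim values raised to the lowest detected signal, which is no bound because a Sham array was dim as well. It was -2.26 without that step, -1.38 after normexp and -4.76 without the Sham female array. Without the Sham male array it had no value, because Psg19 was dim on the 3 arrays that remained.

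Psg21 was detected on the labelled TiO2-H female array alone, with a signal of 26.6 there, against 21.6 for Sham male, 19.2 for Sham female and 26.6 for labelled TiO2-H male. Its values were too close to the limit of detection to give a fold change. Together with Psg19 it was among the 4.36% of genes detected on exactly 1 array. Psg18 and Psg25 were detected on no array, as were 21.8% of all genes. Psg18, also known from the epithelium over lymphoid follicles of the gut, had signals of 6.33, 6.60, 7.09 and 4.84, and Psg25 had 6.08, 6.35, 5.85 and 4.69. Psg18 lies beside Psg28 on the chromosome and Psg25 beside Psg26.

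Ceacam2, which is known outside the placenta from intestinal epithelium and from hypothalamic nuclei that control feeding, gave different pictures on its probes. The probe for transcript NM_001113368 had signals of 40.4 (Sham male), 39.1 (Sham female, not well above background), 47.4 (labelled TiO2-H male) and 77.0 (labelled TiO2-H female). It differed by 0.13 on the log2 scale in the labelled males, within the scanner error of 0.41, and was 1.80-fold higher in the labelled females. The latter ratio uses its own dim Sham female signal, which exceeded the lowest detected signal, so it is no strict limit, and after normexp the log2 difference was 0.44 in place of 0.85. The labelled TiO2-H female array alone was high, and exceeded the labelled TiO2-H male array 1.62-fold (log2 0.69, scanner error 0.32). The probe for transcript NM_007543 gave 8.24 for Sham male, 8.66 for Sham female and 6.24 for labelled TiO2-H female, none well above background, and 131 (scanner error 15) on the labelled TiO2-H male array, at least 4.03-fold above Sham male.

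Some spots near each Ceacam2 probe were raised on the same array as the probe. Around the NM_007543 spot, 5 of 14 spots that were dim on Sham were detected on the labelled TiO2-H male array and 2 on the labelled TiO2-H female array. The local lower quartile of the 24 nearest spots was not raised there. It was 7.83 on the labelled TiO2-H male array, against 8.24 for Sham male and 8.67 for Sham female. A spike-in control spot at 36.1 μm, for ERCC-00013, read 8.22, 8.65 and 6.23 on the Sham male, Sham female and labelled TiO2-H female arrays and 90.6 on the labelled TiO2-H male array. Around the NM_001113368 spot, 3 and 4 of 10 such spots were detected on the labelled TiO2-H male and female arrays, and the local lower quartile was 31.6 on the labelled TiO2-H female array against 7.85 to 9.07 on the other arrays. With the excess of the 24 nearest spots subtracted, the labelled female difference of this probe was 0.30 on the log2 scale.

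The members were then counted at the thresholds of 1.5-fold and 0.67-fold in each comparison, beside the share of all genes past the same threshold. On the arrays labelled male, Psg26 was the 1 member of 7 compared that reached 1.5-fold (2.06% of all 15589 genes compared), and Psg17 and Psg19 were at or below 0.67-fold (1.83% of all). On the arrays labelled female, Psg26 and Ceacam2 were the 2 of 7 that reached 1.5-fold (1.59% of all 15767), and 0 of 7 were at or below 0.67-fold (1.97% of all). For the means of both sexes, with 8 members compared, Psg26 reached 1.5-fold (1.03% of all) and Psg19 0.67-fold (2.17% of all). Psg26 alone of the 6 members with a value in both labelled sexes reached 1.5-fold in both, which 18 of 15206 genes did (0.118%). As Psg26 was chosen on this comparison, nothing is read from these shares.

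The difference between labelled sexes serves as a measure of how far arrays of the same exposure lay apart. Within Sham, 0 of 5 members were at least 1.5-fold higher on the array labelled female (1.84% of all genes), whereas Psg17 and Psg19 were at or below 0.67-fold (1.75% of all). Within TiO2-H, Ceacam2 was at least 1.5-fold higher on the array labelled female (1.30% of all), and 0 of 7 members were at or below 0.67-fold (2.29% of all). Psg17, Psg19 and Ceacam2 thus differed nearly as much between arrays of the same exposure as between exposures (for Ceacam2, 0.69 against 0.85 on the log2 scale). The median log2 difference of the members with a value was 0.08 in the labelled males and 0.16 in the labelled females, beside 0.003 and 0.015 for all genes. Both member medians include Psg26, on whose rise in this comparison the set was chosen, so nothing is read from them.

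**Figure D3:**
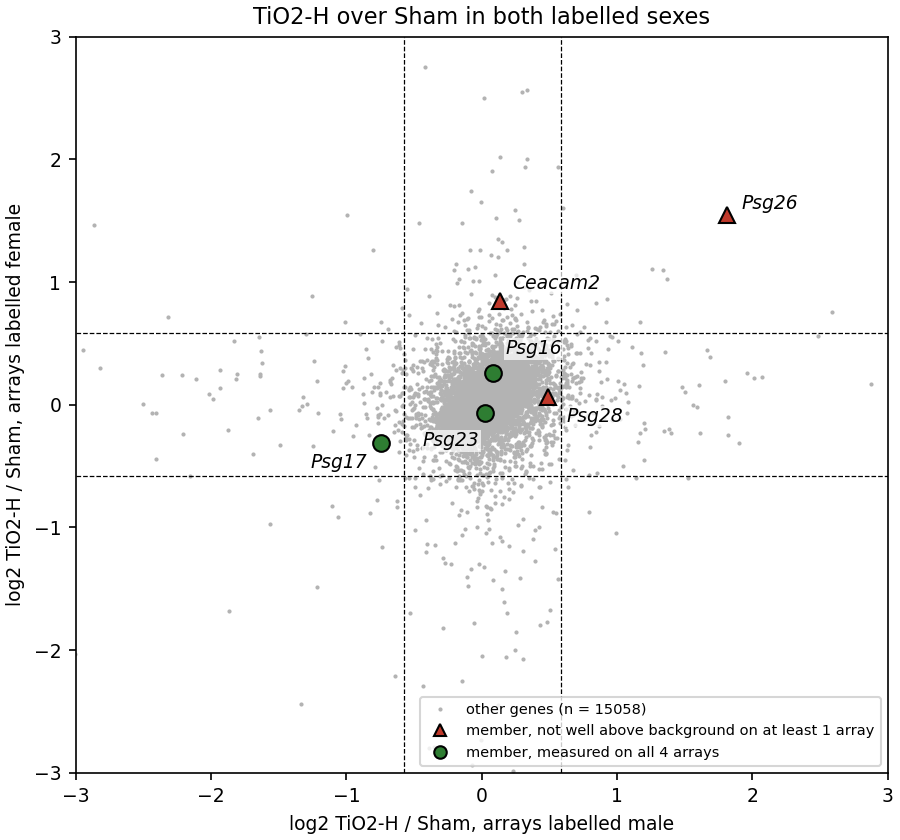
Log2 signal ratio TiO2-H over Sham on the arrays labelled male (x axis) and female (y axis) for 15064 genes with a value in both. Triangles and circles are the 6 members with both values, triangles marking those not well above background on at least 1 array, gray dots are other genes (17 lie outside the axes), and dashed lines mark 1.5-fold and 0.67-fold. Psg26 lies at 1.81 and 1.54, and the other members lie inside the dashed lines on at least 1 axis.

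Other genes of the family were mostly dark. Of the other Psg genes with a probe, Psg20, Psg22, Psg27, Psg29 and the pseudogene Psg-ps1, 0 of 5 were detected on any array. Of 13 other Ceacam genes, 10 were detected on none. Ceacam20 was detected on all 4 arrays by 1 of its 2 probes, with signals of 308, 292, 325 and 322 and log2 differences of -0.02 and 0.01. Ceacam10 was detected on the labelled TiO2-H male array alone (51.8) and Ceacam13 on the Sham female array alone (53.5), and none of the 13 was past a threshold in the same direction in both labelled sexes.

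Most reported partners of Psg proteins were detected throughout. Cd9, the tetraspanin receptor of Psg17, had signals of 4473 (Sham male), 4866 (Sham female), 4647 (labelled TiO2-H male) and 4933 (labelled TiO2-H female). Of 12 partner genes, 10 were detected on all 4 arrays, and the integrin subunits Itga5 and Itga2b on none. None of the 10 reached a threshold in either labelled sex: their log2 differences ran from -0.13 to 0.25 in the labelled males and from -0.16 to 0.17 in the labelled females. The growth factor Tgfb1 differed by -0.02 and 0.12, and the heparan sulfate carriers Gpc1 and Sdc3 stayed within 0.08 of no difference in both.

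Markers of trophoblast, the cell type that Psg genes are known for, were examined in the same arrays. Of 24 marker genes with a probe, 14 were detected on no array, among them the spongiotrophoblast genes Tpbpa and Tpbpb, with signals between 5.45 and 7.54, as well as Plac1 and Ctsq. Ascl2, Gcm1, Prl3b1, Prl3d1 and Prl6a1 were detected on all 4 arrays by their brightest probe. Prl3d1 and Prl6a1 each had 2 probes, of which the other was detected on no array. Prl3b1, placental lactogen 2, had signals of 669, 574, 585 and 523, with log2 differences TiO2-H over Sham of -0.29 and -0.26 in the labelled males and females. The summed scaled level of the list was 706% (Sham male), 779% (Sham female), 897% (labelled TiO2-H male) and 1005% (labelled TiO2-H female) of the 75th percentile, most of it from Gcm1. By its brightest probe Gcm1 alone gave 542%, 621%, 746% and 866% in the same order. The sum of the other markers was thus not higher on the TiO2-H arrays. By its brightest probe, no marker was past a threshold in the same direction in both labelled sexes. In a pool of whole brains, fewer cells of a type and less RNA per cell cannot be told apart.

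**Figure D4:**
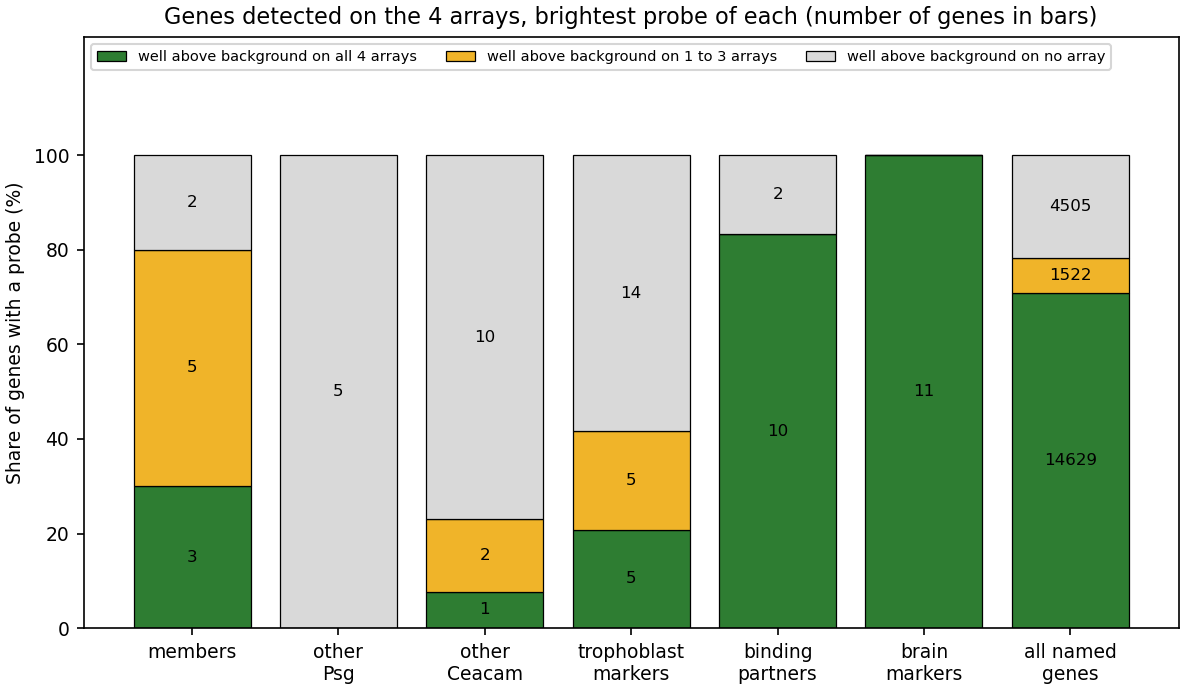
Share of genes (percent, with the number of genes in each bar) whose brightest probe was well above background on all 4 arrays, on 1 to 3 arrays or on none. Of the members 3, 5 and 2 fall into these classes, against 14629, 1522 and 4505 of all named genes. The other Psg genes were detected on no array and the brain markers on all.

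The genes most like Psg26 over the 4 arrays were sought among the 218 genes outside the set that were detected on the same arrays, by the distance between their log2 values after centring. They were Olfr1413 (distance 0.46), Mrgprb2 (0.77), Olfr1441 (0.79), C130026L21Rik (0.93) and Htr6 (0.97). Olfr1413, an odorant receptor gene, had signals of 9.32 and 9.89 for Sham male and female and 82.5 and 74.2 on the labelled TiO2-H male and female arrays, and was at least 2.53-fold and 2.14-fold higher. Htr6, a serotonin receptor gene of neurons, was dim in both Sham pools and read 105 and 45.4 on the labelled TiO2-H male and female arrays. Around Htr6, Mrgprb2 and Olfr1441, respectively, 5 of 9, 6 of 14 and 1 of 11 spots that were dim on Sham were detected on the labelled TiO2-H male array, and 2 of 9, 2 of 14 and 4 of 11 on the labelled TiO2-H female array. Around Olfr1413 and C130026L21Rik they were 0 of 9 and 0 of 11 on the first, and 2 of 9 and 0 of 11 on the second. The local lower quartile of these genes on the labelled TiO2-H female array was 17.9 (Olfr1413) and 15.1 (C130026L21Rik). It was 6.46 and 7.54 for Sham female, and 6.40 over the whole labelled TiO2-H female array. On the labelled TiO2-H male array it was 5.93 and 9.80, against 8.53 and 9.17 for Sham male and 7.94 over the whole array. With 48 spots the labelled TiO2-H female values were 7.23 and 13.8.

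The spread of single spots bounds what these values can show. Among probes spotted 10 times on an array, the log2 signals of 1 probe had an SD of 0.06 to 0.07 where the probe was well above background, 0.14 to 0.18 at signals from 30 to 150, and 0.18 to 0.37 where it was dim. Since many dim spots hold a signal equal to its own error, the SD of dim probes may understate their noise. Psg26, Psg17, Psg28 and Ceacam2 lie in the middle range on the arrays that detected them, and each member probe was printed once per array, so that no member value is a mean over spots. These errors cover the spots and not the animals.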

How the data were processed

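Pooled brain RNA of each group was labeled with Cy3 and hybridized to an Agilent SurePrint G3 mouse array. The authors deposited intensity values made with Feature Extraction 10.10.1.1, which subtracts local background. The deposited table of intensity values equaled the scanner files' processed signal (within 0.1%) for all 59305 non-control spots and is unscaled. Here each array was divided by its 75th percentile, outlier spots were left out, spots of a probe were averaged, and the brightest probe stood for a gene. Genes were compared if detected on at least 1 array, with dim values raised to the lowest signal well above background. RefSeq identifiers were named through a GRCm38.p6 gene table (98.0% matched). Because the array annotation is older, no probe positions are given. Thresholds (1.5-fold, 0.67-fold) were the study's. Groups of 1 array allow no test, so no p-value is given, and precision is limited by the array number. The members and lists were chosen with earlier results of these data known. Named genes were all members with every probe, genes of other lists past a threshold in both labelled sexes, and the 5 most like Psg26. Further genes were chosen after their values were seen. Scanner error is the software's error of the processed signal. Alternatives were other scaling (none, quantile, the deposited table), normexp with an offset of 50 on median signals (limma 3.58.1, R 4.3.3), no floor, other filters and thresholds, all probes, outlier spots kept, arrays paired across sex labels, each array left out, and subtraction of a local lower quartile. Other steps used Python 3.11.15, numpy 2.4.6, pandas 2.3.3 and Biopython 1.88, and the fold change rule was tested on simulated data.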

Additional observations from a re-analysis of the deposited data

How the results depend on the processing

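No member past a threshold changed direction under any alternative that gave it a value. In all but the runs without a floor or filter, a bound pointing the other way counted as no fold change. There, a reversal of a bound could not be recorded. For Ceacam2 in the labelled females, the run on the mean of a gene's probes thus gave no value. For the mean of both sexes, Psg26 kept a log2 difference of 1.59 to 1.79 under no scaling, quantile normalization, the deposited table, the mean of a gene's probes, outlier spots kept, no filter and without any single array. In the labelled males, labelled females and their mean, it was 1.11, 0.91 and 1.01 after normexp, 3.89, 3.61 and 3.75 without the floor, 0.16, 0.20 and 0.18 with the local lower quartile of 24 spots subtracted, and 0.67, 1.01 and 0.84 with that of 48 spots. The last 2 settings were chosen after seeing the data. The values without the floor rest on dim Sham signals that equal their own error, so their size is no measured fold change. In the same order, members at or above the upper threshold (1, 2 and 1) numbered 2, 1 and 2 with the mean of a gene's probes, and 0 in each with detection required on both arrays or with 24 spots subtracted. They were 2 and 1 with arrays paired across the sex labels, 1 for the labelled females after normexp or at 2-fold, 2 for the labelled males and for the mean with every probe counted, and 2 for the mean with no scaling or the deposited table, by Ceacam2. Members at or below the lower threshold in the labelled males (2) numbered 1 after normexp, at 0.5-fold or with detection on both arrays. For the mean (1) they were 2 by quantile normalization and 0 with detection on both arrays. Leaving out each array in turn gave 1 to 2 members up (2 without the labelled TiO2-H male array) and 0 to 2 down (0 without the Sham male array, 2 without the Sham female or labelled TiO2-H male array) for the mean. The causes were not tested, apart from those fixed by how an alternative is built. Depth is set by signal over background, and Psg18 and Psg25 are below it. No paired analysis was possible because each group is 1 array and no result comes from a test.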

Other observations

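Gcm1, a transcription factor of labyrinth trophoblast, gave unequal values on its 4 probes. The brightest probe had signals of 4389, 4939, 6475 and 7539.8 on the Sham male, Sham female, labelled TiO2-H male and labelled TiO2-H female arrays, and log2 differences TiO2-H over Sham of 0.46 in the labelled males and 0.48 in the labelled females, under 1.5-fold. The next had 3024, 3786, 6552 and 7969, with differences of 1.02 and 0.94, both past 1.5-fold. Another probe had 393, 505, 499 and 539, with differences of 0.25 and -0.04, and the remaining probe was dark on every array. All 4 probes carry the same RefSeq identifier, so these values do not agree on one change for this gene, which was picked out after its values were seen.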
